A study of Mus musculus with 2 samples.

Results

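The SOX and FOX genes encode 2 large families of DNA-binding transcription factors, and their RNA was measured here in whole intestine of mouse embryos. Members were taken by name, as protein-coding genes with a Sox or Fox symbol and a family number, without Sox10, Foxf1, Foxf2 and Foxl1. This gave 59 genes, 18 Sox and 41 Fox, of 21474 protein-coding genes in the tables. Total RNA was sequenced from 1 group, whole intestine of healthy B6NCrl embryos at 16.5 days of development, male and female embryos mixed. The group has 2 libraries, each from its own pool of embryos: 41 embryos went into replicate 2, and for replicate 1 no number of embryos is known here. Both pools are biosamples of their own per the labels, and no treatment, allele or second age enters the design. With 2 libraries of the same condition there is no test between conditions, so levels are given per library and differences are read against the spread between the libraries.

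SOX proteins bind DNA through an HMG box, which bends the minor groove, and they are sorted into groups by the similarity of that box and its flanks. FOX proteins bind through a winged-helix fold called the forkhead, and letters mark their groups. In the gut, FOXA factors open chromatin in endoderm, SOX9 acts in epithelial progenitors, SOXF factors act in blood and lymph vessels, and FOXM1 drives the genes of mitosis.

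Depth was 42040766 expected counts in replicate 1 and 41480301 in replicate 2, counts being estimated reads per gene. Levels are given as TPM, an abundance that is corrected for length and scaled so that libraries can be compared. At a length of 2500 bases, 3 counts, taken as the limit that a count of 0 allows, equal 0.0441 and 0.0454 TPM. This limit covers counting error only. The tissue label was checked on marker lists: all 10 epithelial markers, all 8 smooth muscle markers and 7 of 8 mesenchymal markers reached 1 TPM in both libraries. All 10 pancreatic and all 8 liver markers did so too, with Pnliprp1, a pancreatic lipase-related gene, at 1975 and 2330 TPM and the fetal liver gene Afp at 276 and 185 TPM. The RNA of a whole organ mixes all of its cells, so fewer cells of a type and less RNA per cell cannot be told apart in any level below.

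Of the 59 members, 29 were detected, which here means at least 1 TPM in both libraries: 11 of 18 Sox genes (61.1%) and 18 of 41 Fox genes (43.9%). Among all protein-coding genes, 62% were detected. A level of at least 10 TPM in both libraries was reached by 12 members, 4 Sox and 8 Fox, against a background of 38.4% of all protein-coding genes. Together the 59 genes held 344.9 and 349.01 TPM, of which Sox genes held 118.2 and 121.6 and Fox genes 226.7 and 227.4. The gap between detected and undetected members was wide: the lowest detected value was 1.34 TPM, for Foxo4 in replicate 2, and the highest undetected value was 0.43 TPM, for Foxd3 in replicate 1. No member lay between these values in either library. Counts of the detected members ran from 87 for Foxs1 to 5171 for Foxp1, both in replicate 1.

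**Figure D1:**
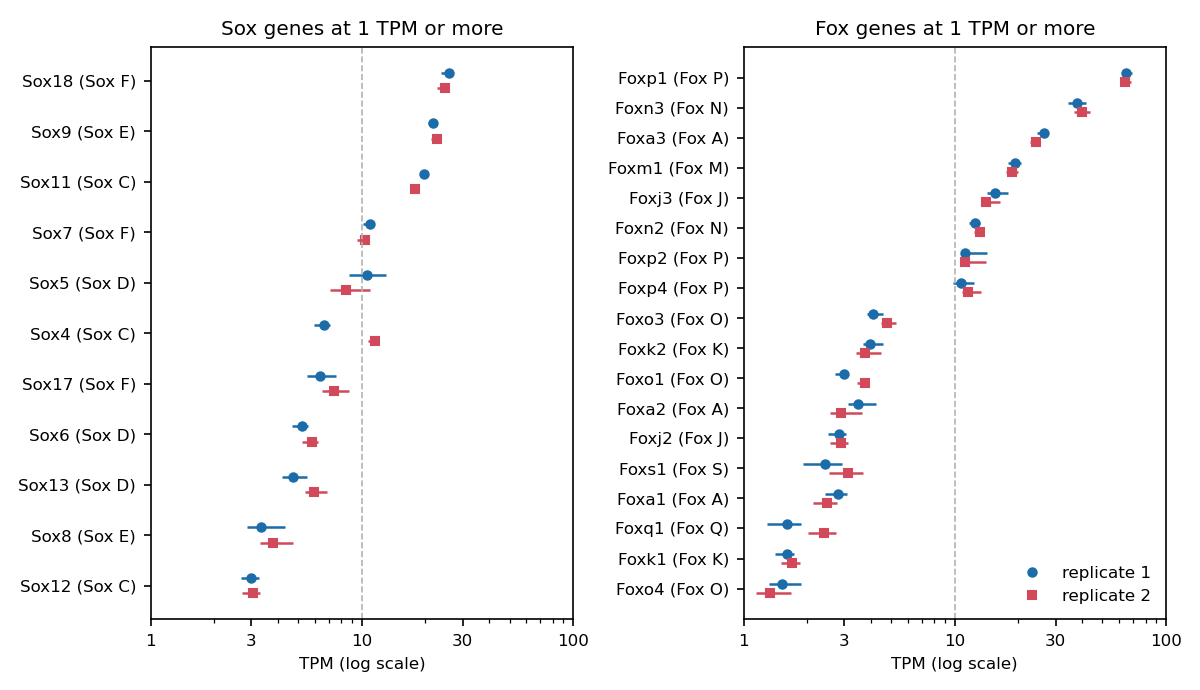
Level of the 29 detected Sox and Fox genes in TPM on a log axis, circles for replicate 1 and squares for replicate 2, with bars for the intervals the authors deposited (level not stated) and each gene's group in brackets. Foxp1 stands highest at 64.8 and 63.96 TPM, 12 genes lie above the dashed line at 10 TPM in both libraries, and Sox4 is the Sox gene whose points lie farthest apart.

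SOXF factors act redundantly in endothelium, and this group held the largest share of Sox TPM, 35.6% ± 1.10 (SD, n = 2). Shares of Sox TPM are shares of the 18 genes kept, without Sox10, which stood at 4.36 and 4.43 TPM. Sox18, which directs lymphatic and vascular identity, was the highest Sox gene at 25.7 TPM in replicate 1 and 24.65 in replicate 2 (chromosome 2, 181669836 to 181671640, minus strand). Sox7, also endothelial, stood at 10.9 and 10.3 TPM. Sox17, known from definitive endoderm and arterial endothelium, was lowest of the trio at 6.36 and 7.40 TPM. Sox18 exceeded Sox7 by 2.36-fold, with log2 ratios of 1.23 and 1.25 in the libraries, and Sox17 lay below Sox18 with log2 ratios of -2.00 and -1.72. Both differences were over 3 SD of the libraries' ratios, while Sox17 and Sox7 did not come apart by that rule. All 10 endothelial markers and all 4 lymphatic markers were detected beside them, with a summed level of 269 and 264 TPM for the endothelial list, Egfl7 highest at 101.2 and 93.4 TPM and Erg lowest at 3.17 and 3.29.

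SOXC factors, known from progenitors, mesenchyme and differentiating neurons, held 25.7% ± 1.37 of Sox TPM. The HMG boxes of Sox11 and Sox4 are nearly alike, so the coding bases of the box are shown to let a reader see how far reads of these genes can be told apart. Each line gives 210 coding bases of the GENCODE M21 transcript on GRCm38, from the stretch of Sox11 that matches the other Sox genes best, and capitals mark bases that differ from Sox11.
Sox11: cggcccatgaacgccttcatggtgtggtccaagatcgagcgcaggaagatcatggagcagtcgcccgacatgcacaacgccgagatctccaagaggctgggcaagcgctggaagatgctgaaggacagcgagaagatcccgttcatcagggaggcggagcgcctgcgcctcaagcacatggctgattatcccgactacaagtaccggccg
Sox4: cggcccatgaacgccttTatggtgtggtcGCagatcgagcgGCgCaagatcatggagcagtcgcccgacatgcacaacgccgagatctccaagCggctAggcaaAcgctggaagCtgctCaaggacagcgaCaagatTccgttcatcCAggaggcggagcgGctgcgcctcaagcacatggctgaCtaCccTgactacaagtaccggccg
Sox4 differs from Sox11 at 19 of the 210 bases, and the longest run of identical bases in this window is 48. Over whole transcripts, no pair of the 24 related pairs compared below shares a run of 100 bases, and the longest shared run is 53.

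Sox11, a factor of neural and mesenchymal progenitors, was the highest SOXC gene at 19.7 and 17.9 TPM (chromosome 12, 27334264 to 27342574, minus strand). Sox12 was lowest, at 2.99 and 3.04 TPM, and Sox11 exceeded it 6.05-fold in the mean, with log2 ratios of 2.68 and 2.52. Sox4, which acts in epithelial and stromal progenitors, stood between them at 6.61 TPM in replicate 1 and 11.6 TPM in replicate 2. It was the member with the largest difference between the libraries, and its deposited intervals of 5.96 to 7.04 and 10.65 to 12.1 TPM did not overlap.

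The Sox4 exon (chromosome 13, 28948919 to 28953713, minus strand) overlaps a long noncoding RNA gene on the other strand, Gm26735 (28943048 to 28951671), over 2616 exon bases. Their counts moved in opposite directions: Sox4 held 912.87 expected counts in replicate 1 and 1552 in replicate 2, and Gm26735 held 1249 and 779.69. Neither gene had whole counts, yet their sums were whole to within 0.015 in both libraries, at 2162 and 2332. Sox4 was assigned 42.2% of that sum in replicate 1 and 66.6% in replicate 2. As CPM, counts scaled to the library's gene counts, the sum was 52.4 and 57.2, a 1.09-fold difference, where Sox4 alone was 1.72-fold higher in replicate 2 and Gm26735 1.58-fold higher in replicate 1. The labels do not say if the preparation preserved strand, so reads of both genes may not be separable. The Sox4 count would then be an estimated split that may be too low or too high, and the level of Sox4 is uncertain. With the summed reads the Sox4 level would be 15.7 and 17.4 TPM and the SOXC share 30.1% ± 0.0448 of Sox TPM, a calculation added after the data were seen.

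Of the SOXE genes, Sox9, a factor of intestinal crypt progenitors and of Paneth cell formation, reached 21.8 and 22.6 TPM (chromosome 11, 112782224 to 112787760, plus strand). Sox8, its close relative, stood at 3.33 and 3.79 TPM, and Sox9 was 6.10-fold higher, with log2 ratios of 2.67 and 2.54. Sox8 shares 329 exon bases with an opposite-strand gene, 2810468N07Rik, which held 172 and 160 counts beside 227 and 259 for Sox8. Outside the gut Sox9 is known for cartilage, where it drives Col2a1 and Acan. Those cartilage genes were low, at 0.29 and 0.44 TPM for Col2a1 and 0.13 and 0.10 TPM for Acan, and Matn1 was at 0 counts. Of 8 cartilage markers, 1 was detected, Hapln1 at 2.79 and 3.44 TPM.

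SOXD proteins have no activation domain of their own and form dimers through a coiled coil. Sox5 was given 10.5 and 8.43 TPM, Sox6 5.22 and 5.81 TPM, and Sox13, which is known to bind TCF factors, 4.71 and 5.95 TPM. No pair of these genes came apart over 3 SD by the TPM of all transcripts. Counting only transcripts that encode the HMG box, an alternative added after the data were seen, Sox5 stood at 1.23 and 1.35 TPM, below Sox6 at 5.21 and 5.80 and Sox13 at 3.69 and 4.69. Sox5 then lay below Sox6 with log2 ratios of -2.00 and -2.02, the direction opposite to that of all transcripts, and Sox13 above Sox5 with 1.51 and 1.72, both over 3 SD. Beta-catenin itself, Ctnnb1, was at 313 and 318 TPM, and 4 of 5 listed genes of beta-catenin and its TCF partners were detected, Lef1 being lowest at 0.27 and 0.25 TPM.

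No SOXB gene was detected, a group best known from neural progenitors, foregut and pluripotent cells. Sox2, a stem cell factor of stomach and esophagus, had 12 counts in replicate 1 and 6 in replicate 2, which equals 0.17 and 0.09 TPM. Sox3, Sox1 and Sox21 had no more than 2 counts in a library. Sox14, and Sox15 of group G, had 0 counts in both. Sox30, a testis factor, stood at 0.07 and 0.05 TPM. Stomach and foregut markers were low as well: 3 of 10 were detected, Tff2 highest at 4.42 and 6.13 TPM, and Muc5ac and Nkx2-1 were at 0.

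The FOXP group held 38.2% ± 0.0440 of the TPM of the 41 Fox genes kept here, the largest share of any group among them. The FOXF genes are not in that total: Foxf1 stood at 74.3 and 75.3 TPM and Foxf2 at 11.7 and 9.74. Shares of Fox TPM are therefore shares of the genes kept and not of the whole family. FOXP proteins are repressors that work as dimers through a leucine zipper. Foxp1, known from smooth muscle, lung and gut epithelium, was the highest of all 59 genes at 64.8 and 63.96 TPM (chromosome 6, 98925338 to 99522721, minus strand), rank 2566 of the 21474 protein-coding genes. It shares 300 exon bases with Gm20696 on the same strand, which held 107 and 87.3 counts beside 5171 and 4910. Foxp4 stood at 10.7 and 11.6 TPM and Foxp2, widely known for its part in speech circuits, at 11.17 and 11.20 TPM. Foxp1 exceeded Foxp2 5.71-fold and Foxp4 5.74-fold, and Foxp2 and Foxp4 did not come apart. The deposited TPM of Foxp2 lay below its own deposited interval in both libraries, 11.50 to 14.1 and 11.24 to 13.99, the only detected member of which this was true. Foxp3, the factor of regulatory T cells, had 1.19 and 3.58 counts. Of 8 T cell and thymus markers, 1 was detected, Ikzf2 at 2.06 and 1.75 TPM, and Ctla4 was at 0. Of 9 listed genes for corepressors and nuclear partners of FOXP proteins, 8 were detected, Hdac1 highest at 177 and 168 TPM and Nr2f1 lowest at 1.01 and 0.75.

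Much of the Foxp1 RNA was assigned to transcripts that start inside the gene. The promoter windows of 2 of its annotated start sites are shown because the transcripts that begin there differ in level. Each has 250 bases before and 50 after the start, is read from the RefSeq promoter table (GRCm38.p6) on the minus strand, and has capitals for any match on either strand to the motifs searched, TGTTTAC (a forkhead motif), ATTGTT (a SOX motif) and TATAAA.
Foxp1 chr6:99028249-99028548: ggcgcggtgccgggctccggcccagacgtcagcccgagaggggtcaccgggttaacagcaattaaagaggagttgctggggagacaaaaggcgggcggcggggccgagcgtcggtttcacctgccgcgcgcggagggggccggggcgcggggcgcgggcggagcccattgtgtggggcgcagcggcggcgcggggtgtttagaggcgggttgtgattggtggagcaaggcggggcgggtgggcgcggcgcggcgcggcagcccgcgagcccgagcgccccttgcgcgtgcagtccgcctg
Foxp1 chr6:99266466-99266765: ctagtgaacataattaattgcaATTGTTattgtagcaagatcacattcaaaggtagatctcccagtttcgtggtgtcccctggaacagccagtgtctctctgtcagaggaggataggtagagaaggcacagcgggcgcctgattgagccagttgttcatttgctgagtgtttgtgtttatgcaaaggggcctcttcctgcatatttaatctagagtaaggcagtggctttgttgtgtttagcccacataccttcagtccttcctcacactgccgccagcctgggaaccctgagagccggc
Transcripts starting within 100 bases of the site in the upper window held 30.6 and 30.5 TPM, 47.2% and 47.8% of Foxp1. Those at the lower one held 5.30 and 5.66 TPM, 8.17% and 8.84%. The upper window has 44 CpG pairs and an observed over expected CpG ratio of 1.11, the lower 5 pairs and 0.282. The lower window holds ATTGTT, a motif present in 8.81% of all protein-coding genes' windows of this length, and the upper none of the 3. A match here is only a match of letters. A further window of Foxp1, chr6:99520944-99521243, is not printed. It has 13 CpG pairs, a ratio of 0.499 and none of the motifs. Its transcript, Foxp1-220, took 0% in both libraries by TPM, so level did not follow CpG content over all of these windows. Foxp1-204, with 16.4% and 15.98% of the gene, starts at none of these sites. The start sites come from annotation, since the libraries do not mark the 5′ ends of transcripts.

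FOXN genes followed among the groups kept here, with 22.8% ± 0.871 of Fox TPM. Foxn3, a checkpoint factor that represses transcription, reached 37.8 and 40.1 TPM (chromosome 12, 99190078 to 99563582, minus strand), and its relative Foxn2 12.5 and 13.2 TPM. Foxn2 lay below Foxn3 in both, with log2 ratios of -1.59 and -1.60. Foxn1, the factor of thymic epithelium and hair, had 0 and 2 counts, and Foxn4, of retina and spinal cord, had 0 in both libraries. Among the detected Fox genes, the 3 highest, Foxp1, Foxn3 and Foxa3, were each set apart from the next by more than 3 SD. This used the TPM of all transcripts. Counting only transcripts that encode the forkhead, Foxn3 stood at 23.45 and 24.87 TPM and Foxa3 at 25.66 and 23.92, so their order changed between libraries.

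FOXA factors, the pioneer factors of endoderm, held 13.7% ± 0.943 of Fox TPM, and its members differed widely in level. Foxa3, a factor of liver, gut and secretory cells, reached 26.4 and 24.35 TPM (chromosome 7, 19013284 to 19023538, minus strand). Foxa2, which acts in early endoderm, notochord and endocrine cells, stood at 3.48 and 2.88 TPM, and Foxa1 at 2.81 and 2.48. Foxa3 was 7.79-fold above Foxa2 and 9.28-fold above Foxa1. Foxa2 and Foxa1 differed only 1.19-fold, though in the same direction in both libraries and over 3 SD. The deposited intervals of Foxa2 and Foxa1 overlapped in replicate 2, at 2.56 to 3.63 and 2.13 to 2.77 TPM, but not in replicate 1. FOXA genes also act in liver and pancreas, whose markers were detected above; their part in these levels was not tested.

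All 11 listed endoderm genes that FOXA factors bind were detected. Agr2, a secretory chaperone, was highest at 368 and 348 TPM, and Shh, a hedgehog ligand, was lowest at 2.41 and 2.45 TPM. The hormone gene Gcg stood at 57.1 and 72.9 TPM. Ins2, an insulin gene of the pancreatic list, stood at 201.6 and 263.1 TPM, and the part of pancreas in the Gcg level was not tested. Within Foxa2, the assignment of reads to start sites differed between libraries, and the windows of the 2 sites that were given reads are shown, with the same 3 motifs searched and none found in them.
Foxa2 chr2:148045899-148046198: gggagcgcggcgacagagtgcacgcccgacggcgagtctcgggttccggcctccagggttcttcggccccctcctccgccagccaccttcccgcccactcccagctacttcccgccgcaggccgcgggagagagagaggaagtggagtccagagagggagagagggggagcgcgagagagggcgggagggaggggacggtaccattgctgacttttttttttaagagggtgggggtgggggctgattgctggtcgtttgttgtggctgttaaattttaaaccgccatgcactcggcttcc
Foxa2 chr2:148046920-148047219: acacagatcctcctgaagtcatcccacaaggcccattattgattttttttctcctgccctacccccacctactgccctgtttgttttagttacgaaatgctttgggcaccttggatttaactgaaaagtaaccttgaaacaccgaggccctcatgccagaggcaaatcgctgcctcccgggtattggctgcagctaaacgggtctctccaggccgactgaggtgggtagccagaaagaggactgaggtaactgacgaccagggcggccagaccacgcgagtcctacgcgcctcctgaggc
Both lie on the minus strand of GRCm38.p6, from the RefSeq table. Foxa2-202, which starts in the upper window, took 100% of the gene's TPM in replicate 1 and 78.7% in replicate 2, and transcripts of the lower window took 0% and 21.4%. By the posterior means the authors also deposited, the upper window had 78.0% and 63.0% and the lower 18.9% and 33.7%. The gene had 202 and 163 counts, and the upper start was the larger in both libraries by either estimate. Another window of Foxa2 in the table, chr2:148045415-148045714, holds a TATAAA match, and its transcript, Foxa2-203, took 0% in both libraries by TPM and 3.03% and 3.35% by posterior means.

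Foxm1, which binds with the MuvB complex at genes of the G2 and M phases, stood at 19.2 and 18.7 TPM (chromosome 6, 128362967 to 128376146, plus strand). All 15 listed genes of FOXM1, MuvB and mitosis were detected. The survivin gene Birc5 was highest at 261 and 221 TPM, Cdc20 reached 194 and 174 TPM, and Lin54, a MuvB subunit, was lowest at 8.71 and 9.15 TPM. Summed over the list, replicate 1 was 1.14-fold higher, at 1376 against 1207 TPM, and 2 of the 15 genes were higher in replicate 2. Foxm1 itself differed by a log2 ratio of only -0.04 (replicate 2 over replicate 1).

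Of the FOXJ genes, Foxj3, a broadly expressed factor, reached 15.6 and 13.98 TPM and Foxj2 2.82 and 2.88 TPM. Foxj1, the master factor of motile cilia, was not detected, at 0.23 and 0.31 TPM. Of the 7 multiciliated cell markers found in the tables, 0 were detected, with Rsph1 highest at 0.77 and 0.82 TPM. FOXK genes, which repress autophagy genes and act in glycolysis, were low: Foxk2 stood at 3.96 and 3.76 TPM and Foxk1 at 1.60 and 1.70 TPM, and Foxk2 was higher in both libraries by over 3 SD.

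FOXO factors are held in the cytoplasm by AKT when insulin signals, so RNA alone does not show their activity. Foxo3 stood at 4.12 and 4.79 TPM, Foxo1 at 2.98 and 3.75 and Foxo4 at 1.52 and 1.34. This order held in both libraries by over 3 SD for each pair. Foxo6, a neural member, had 8 and 7 counts. All 18 listed genes of the insulin and AKT axis and of FOXO targets were detected, among them Akt1 at 48.3 and 55.9 TPM and Akt2 at 51.6 and 49.9 TPM as the highest by mean, and Bcl6 as the lowest at 1.06 and 1.02 TPM.

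The remaining detected genes were Foxs1, known from sensory neurons and perivascular cells, at 2.44 and 3.12 TPM, and Foxq1, known from mucin-secreting cells of the stomach, at 1.61 and 2.40 TPM. By GENCODE M21, Foxq1 overlaps A530084C06Rik on the other strand over 3200 exon bases. The Foxq1 transcript counted here is 2653 bases long, so not all of those bases lie in it. A530084C06Rik held 26.3 and 28.99 counts beside 121 and 175 for Foxq1.

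Of the 30 undetected members, 17 had at least 1 count in a library and 13 had none in either. Among the Fox genes at 0 in both were Foxb1, Foxb2, Foxd4, Foxe3, Foxi1, Foxi2, Foxl2, Foxn4, Foxr1 and Foxr2, a set that includes genes known from lens, kidney, inner ear and ovary. The FOXD gene of neural crest, Foxd3, had the highest mean count of any undetected member, 28 and 22 counts, equal to 0.43 and 0.35 TPM, and Foxj1 equalled it in replicate 2 with 17 and 22. Foxc1 and Foxc2, of mesoderm and lymph vessels, stood at 0.09 and 0.08 TPM and at 0.17 and 0.19 TPM. Foxd2 had 13 and 7 counts, and Foxi3, Foxh1, Foxd1 and Foxe1 had at most 3 in a library. Marker lists of the tissues named here did not all stand low. Of 8 central nervous system markers 2 were detected, and of 6 germ cell markers 0. Of 10 gonad, adrenal and kidney markers 2 were, Cyp11a1, a steroid-synthesis enzyme, at 19.2 and 5.51 TPM and Inha, an inhibin subunit, at 6.27 and 5.65. All 10 markers of enteric crest, glia and neurons were detected, Ednrb highest at 99.6 and 94.4 TPM, and all 4 lymphatic markers, although Foxd3, Foxc1 and Foxc2 were below 1 TPM.

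Related genes were compared within each library, on log2(TPM + 0.1). Of 24 pairs, 22 had both genes detected, and 15 of these came apart, meaning 1 direction in both libraries and a mean ratio over 3 SD. The 7 others were Sox4 with Sox11, Sox4 with Sox12, each pair among Sox5, Sox6 and Sox13, Sox17 with Sox7, and Foxp2 with Foxp4. With domain-encoding transcripts only, 18 of 22 pairs came apart: the same 15, and Sox5 with Sox6, Sox13 with Sox5 and Sox17 with Sox7. In the order of mean level, 6 of 17 neighbouring Fox genes and 3 of 10 neighbouring Sox genes came apart by the same rule. From Foxo3 down to Foxo4 no neighbours did, and neither did Sox18 and Sox9 or Sox9 and Sox11 at the top of the Sox order. With 2 libraries this rule sets size against a rough spread and is not a test. How many unrelated gene pairs would pass it was not computed, so these counts have no background beside them.

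Between the libraries, 28 members had a mean of at least 100 counts, and 0 of them differed at least 2-fold with deposited intervals apart. In the background of 12885 protein-coding genes, 0.458% were higher in replicate 2 and 0.349% in replicate 1 by this rule. At 1.5-fold, 1 member, Sox4, was higher in replicate 2 and 0 in replicate 1, against 1.63% and 0.644% of all genes. The median size of the log2 ratio was 0.13 for the 28 members and 0.12 for all genes. The highest ratios, replicate 2 over replicate 1, were 0.80 for Sox4, 0.55 for Foxq1 and 0.33 for Sox13, and the lowest -0.32 for Sox5, -0.26 for Foxa2 and -0.17 for Foxa1. Intervals did not overlap, at any fold, for 4 of the 28 members: Sox4, Foxq1 and Foxo1 were higher in replicate 2 and Sox11 in replicate 1. The same held for 13.7% of all genes in the direction of replicate 2 and 12.6% in that of replicate 1, so 4 of 28 is not above the background. Marker lists moved between the pools as well: the summed pancreatic list was 1.30-fold higher in replicate 2, and the summed erythroid list 1.22-fold and gonad, adrenal and kidney list 2.66-fold higher in replicate 1. Of the 8 liver genes 7 were higher in replicate 1, with a median log2 ratio of -0.48 (replicate 2 over replicate 1). Alb was at 90.4 and 34.2 TPM, and the sum was 1.11-fold higher in replicate 1, with Cps1, which goes the other way at 314 and 395 TPM, the largest part of it. The part of these cells in the members' differences was not tested.

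**Figure D2:**
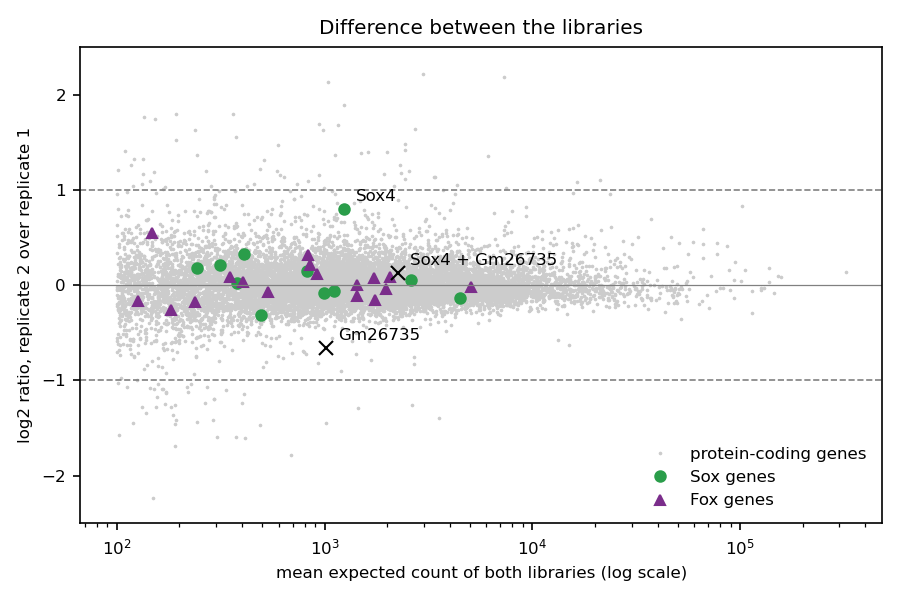
Log2 ratio of replicate 2 over replicate 1 against the mean expected count on a log axis, for protein-coding genes with a mean of at least 100 counts (grey, 6 genes beyond the axis not drawn), the 28 tested Sox and Fox genes by TPM + 0.1, and, as crosses, Gm26735 and its sum with Sox4 by CPM. Dashed lines mark a 2-fold difference, which no Sox or Fox gene reaches; Sox4 lies at 0.80, Gm26735 at -0.66 and their sum at 0.13.

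A gene's TPM sums its transcripts, and not all of them code for the DNA-binding domain. The 29 detected members have 154 annotated transcripts in the deposited tables, and 10 members have a single one. Transcripts were called domain-encoding where they code for at least 90% of the residues of the gene's own HMG box or forkhead stretch, 70 to 90 codons long. The 2 transcripts absent from GENCODE M21 were not examined and were counted as without the domain. They held 7.10% and 6.04% of Foxp2 and 2.64% and 1.77% of Foxa3 in replicates 1 and 2. Domain-encoding transcripts held at least 90% of the mean TPM in 19 members, 50% to 90% in 9 and under 50% in 1, Sox5. The 19 include the 10 members with a single transcript, and Sox6, Sox8, Sox12 and Foxj2, whose annotated transcripts all encode the domain. In all of these the share is fixed by annotation and was not measured. For the other members the shares depend on which transcripts are annotated. Whether annotated transcripts without the domain are incomplete was not tested. In Sox5 they held 1.23 of 10.5 TPM in replicate 1 and 1.35 of 8.43 in replicate 2. Its highest transcript was Sox5-208, a noncoding transcript of 351 bases, with 44.1% and 34.7% of the gene, and TPM divides by length, so that a short transcript reaches a given level with fewer reads. By domain-encoding TPM, Sox5 ranked 29 among the 29 members, and by all transcripts it ranked 13.

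Of Foxn3, 62.0% lay on domain-encoding transcripts in both libraries, and Foxn3-205, a coding transcript of 566 bases without the forkhead stretch, took 25.5% and 29.4%. In Foxp2 the share was 58.1% and 56.6%, with Foxp2-207 highest at 45.9% and 31.5% of the gene. Foxp1 kept 77.2% and 75.3%, led by Foxp1-225 of 1848 bases with 45.1% and 45.4%. Foxp1-204, of 7177 bases, took 16.4% and 15.98%. Foxp4-204 led Foxp4 with 44.3% and 44.6%. A single transcript took most of Foxa3 (Foxa3-201, 97.4% and 98.2%), Foxm1 (Foxm1-201, 78.8% and 83.6%) and Foxn2 (Foxn2-201, 83.6% and 88.95%).

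Among the SOXD genes, Sox6-203 took 53.3% and 51.9% of Sox6, and Sox13-203 54.1% and 66.9% of Sox13. In 17 of 19 members with several transcripts the same transcript led in both libraries. By TPM the exceptions were Sox17, led by Sox17-204 in replicate 1 (36.0%, against 25.95% in replicate 2) and by Sox17-202 in replicate 2 (27.4%, against 18.8%), and Foxj3, led by Foxj3-202 (39.5% and 40.1%) or Foxj3-201 (34.9% and 49.1%). By the posterior means Sox17-204 led in both libraries, with 35.01% and 25.98% against 17.6% and 24.6% for Sox17-202, which left Foxj3 as the exception, 18 of 19. Transcripts of a gene share exons, so these shares are estimates from divided reads.

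**Figure D3:**
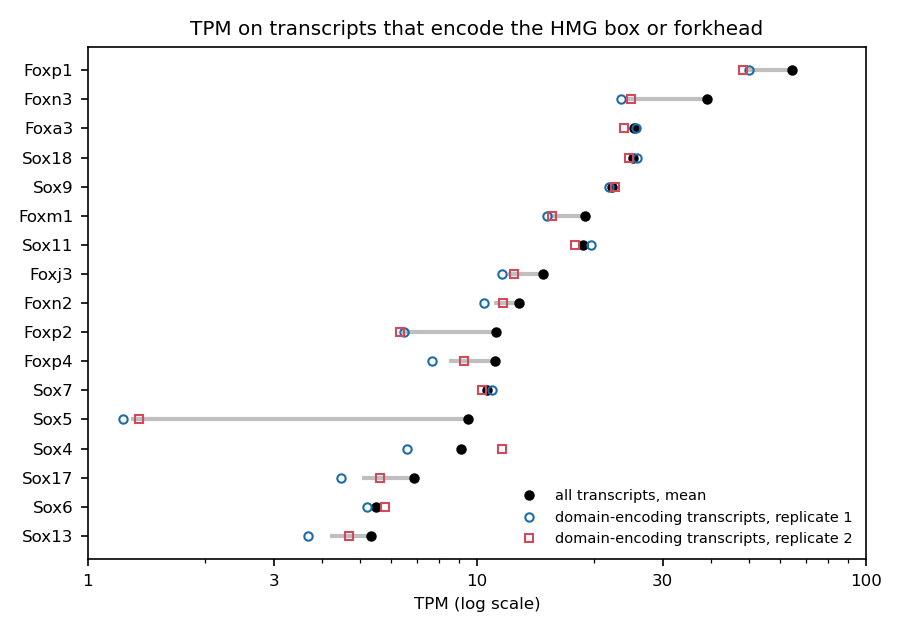
TPM of the 17 members with a mean of at least 5 TPM, on a log axis: filled points give all transcripts (mean of both libraries), open circles and squares give domain-encoding transcripts in replicates 1 and 2, and grey bars join the means. Sox5 has the longest bar, from 9.47 TPM down to 1.29. Sox18, Sox9, Sox11, Sox7 and Sox4, with 1 transcript each, have none, nor has Sox6, whose 5 transcripts all encode the domain.

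Many Sox and Fox genes have no introns. Of 18 members whose coding transcripts have a single exon, 4 were detected (Sox11, Sox4, Foxs1 and Foxq1), and of 41 with introns 25 were. Over all protein-coding genes, 24.2% of 1264 single-exon genes and 64.3% of 20210 with introns were detected.

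The RefSeq table held promoter windows for 40 of the 59 members, 18 of them detected, with 50 windows in all. CpG-rich windows, with an observed over expected CpG ratio above 0.6, made up 63.0% of the 27 windows of detected members and 60.9% of the 23 windows of undetected ones. Over all protein-coding genes the same class made up 65.6% of detected and 16.4% of undetected genes' windows. The median ratio was 0.679 for detected and 0.667 for undetected members, against 0.733 and 0.224 for all genes of those classes. With every window counted, the 2 classes of members lay close together on this measure, where the 2 classes of all genes lay far apart. Sox6 alone supplies 6 of the detected members' windows, and windows of 1 gene are not independent. Their ratios ran from 0.160 to 0.672, all below the detected members' median and all but the highest below 0.6. Without them the share and median of detected members would be higher, so the closeness rests in part on this gene. Matches to TGTTTAC were present in 2 of the 50 windows (4%), among them one of Foxa1, against 2.91% of all windows, to ATTGTT in 2 (4%, against 8.81%) and to TATAAA in 5 (10%, against 12.0%).

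**Figure D4:**
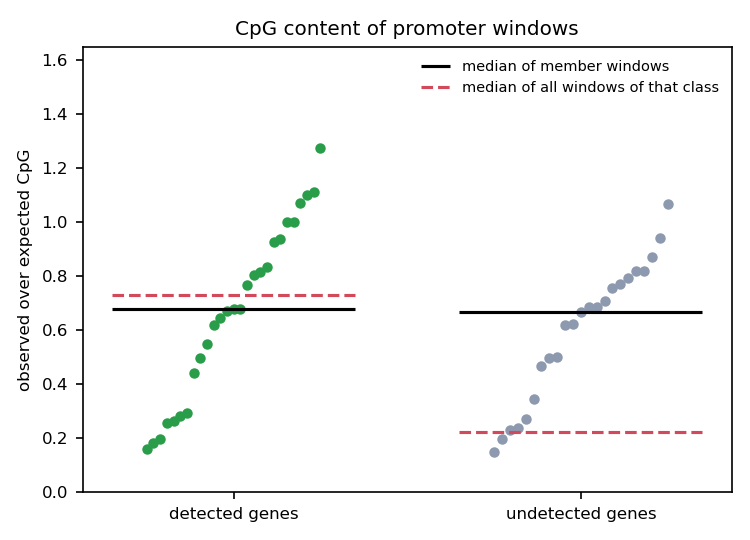
Observed over expected CpG of the promoter windows of detected and undetected Sox and Fox genes, 1 point per window in order of value, with black lines for the medians (0.679 and 0.667) and dashed red lines for the medians of all protein-coding genes of that class (0.733 and 0.224). Points of undetected members spread over much the same range as those of detected members, and their median lies far above the dashed line.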

How the data were processed

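Total RNA above 200 nt, extracted with mirVana, was sequenced from 2 libraries of 10 ng each with ERCC spike-ins, per the labels' protocols, which also cite a SMARTer kit manual. Reads were assigned to GENCODE M4 on mm10, per the text deposited with the tables, with aligner and quantifier not given in the sources used here. Expected counts, as the authors deposited them, estimate how many reads belong to each gene and split shared reads. The authors' TPM values correct these for effective length and scale all features to a fixed total. The percent values the authors deposited state how much of a gene's TPM a transcript holds, and the score columns are the deposited bounds of TPM intervals, whose level is not stated.

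Symbols, types, coordinates and transcripts came from GENCODE M21, the same genome build, by identifier without version (98.0% of 43346 matched), so transcript ends may differ from M4: 60 of the members' 154 transcripts have the same version and 2 are absent. Depth was 41279206 and 40758084 gene counts. Levels are mean ± SD over both libraries. Ratios used TPM + 0.1. A library difference needed a mean of 100 counts, a 2-fold ratio and intervals apart. The rule was also run on simulated counts of 21474 genes, drawn with counting error only and with intervals built from that error. It recovered 97 of 100 genes changed 3-fold and 44 of 100 changed exactly 2-fold, with 0 of 12685 unchanged genes called. The simulation held no difference between pools and no shared reads, so that 0 does not carry over to the real libraries. There, 104 of 12885 genes were called. TMM factors (edgeR 4.0.16) and size factors (DESeq2 1.42.0, R 4.3.3), from expected counts rounded to whole numbers, served as alternatives. Remaining steps ran in Python 3.11.15 with pandas 2.3.3, numpy 2.4.6 and matplotlib 3.10.9.

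Named were all detected members, those at 0 in both libraries (1 gene and some coding sequences are not reported here), those with the 3 highest and 3 lowest library ratios, transcripts of members at 5 TPM or more, and the highest, lowest and zero genes of the lists; other names were chosen after their values were seen. The members, gene lists and marker lists were chosen with earlier results of these data known.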

Additional observations from a re-analysis of the deposited data

How the results depend on the processing

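Among 10 results recomputed under 55 alternatives, 47 values stayed within the spread of the libraries or within 1.5 times the count, and 8 moved. That limit is wide for counts. Detected Fox genes, 18 in the main rule, numbered 15 at 2 TPM, 21 at 10 expected counts and 27 at any count above 0, all within it. CPM, which ignores length, gave 46.5% of Sox in SOXC (25.7% by TPM) and 9.13% of Fox in FOXA (13.7%), and left 17 of the 29 detected members within 1.5-fold of their TPM share, so order between genes holds only per length. SOXF, the first Sox group by TPM, was not first by CPM. Sox11 of SOXC had a mean of 109 CPM, against 27.1 for Sox18, 24.1 for Sox7 and 7.65 for Sox17. Domain-encoding transcripts alone, an alternative added after seeing the data, gave 28.4% for SOXC and 17.0% for FOXA. Summing Sox4 with Gm26735, also added, gave 30.1% for SOXC. Pairs apart numbered 15, and 16 with those sums, 17 by CPM and 18 with 2 SD or with domain-encoding transcripts. Lowering the library difference to 1.5-fold gave 1 member in place of 0, and 0 with those summed reads; TMM and size factors gave 0. At a mean of 5 TPM or more, the same transcript led in 10 of 12 members, fewer members being compared (17 of 19 at 1 TPM, 18 by posterior means). By posterior mean, 3 of 29 levels of single genes moved by more than 1 SD, those of Foxp1, Foxp2 and Foxk2; with 2 libraries, leaving 1 out cannot move a level or a share that far. Without replicate 1 or 2, detected genes stayed at 11 Sox and 18 Fox, Sox genes at 10 TPM were 5 in either library and 4 in both, the SOXC share ran from 24.8% to 26.7% and the FOXA share from 13.1% to 14.4%. Pairs apart, library differences and shared major transcripts gave no value with 1 library left. No paired analysis was possible because the study has only 1 group of samples. Depth limits genes under about 10 counts, where 1 read moves the level, and 2 libraries give only a rough SD.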

Other observations

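Noncoding genes named after Sox and Fox genes were mostly at or near 0. Foxd2os was the exception, with 189 and 119 counts, equal to 4.45 and 2.79 TPM, beside 0.18 and 0.10 TPM for the undetected Foxd2. Sox6os stood at 0.95 and 0.44 TPM from 9 and 4 counts. Sox5os4, Sox5os5 and Foxl2os had 0 counts in both libraries.

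Sox4 was not alone in sharing counts with an overlapping gene. Of the 29 detected members, 8 had counts that were not whole in at least 1 library. For Sox17, Foxm1, Foxo1, Foxj2 and Foxq1, as for Sox4, adding the counts of an overlapping gene made them whole in both libraries. The partner held few counts in those cases: 10.1 and 15.1 for Gm37587 beside Sox17, 2.15 and 6.60 for Tex52 beside Foxm1, 0 and 5.02 for Gm20402 beside Foxo1, 13.97 and 9.24 for Gm26826 beside Foxj2, and 26.3 and 28.99 for A530084C06Rik beside Foxq1. Foxp1 and Foxn2 also had counts that were not whole.

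The members left out by name were Sox10 at 4.36 and 4.43 TPM, Foxf1 at 74.3 and 75.3, Foxf2 at 11.7 and 9.74 and Foxl1 at 4.43 and 4.92.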
